A study of Mus musculus with 3 samples.

Results

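The lipid droplet coat proteins of adipose cells were examined in 3 cell fractions of mouse epididymal fat. The 10 genes taken were the perilipins Plin1, Plin2, Plin3, Plin4 and Plin5, the CIDE family Cidea, Cideb and Cidec, and the droplet assembly genes Bscl2 and Fitm2. They were chosen by name, and every non-control probe that carries one of these names was read, which gave 16 probes for 10 genes, out of 56605 probes for 37325 genes on the array. Epididymal fat pads of male C57/BL mice, 20 weeks old by the labels, were taken apart with collagenase, and no genetic change or treatment is given for any group. After a spin at 9 g for 1 s, the lower phase was taken as the stromal vascular cells (SVC). The floating cells were spun again at 226 g for 3 min, which left the mature white adipocytes (MA) on top and the small proliferative adipocytes (SPA) as the sediment. SVC and SPA were grown in culture until 90% confluent before RNA was taken, whereas no culture is described for MA, whose title also carries another date, so cell fraction, culture and date cannot be told apart where MA is compared. The age and the speed of the first spin are those of the labels. The study's methods give a lower speed for that spin, and most of its experiments used younger mice. Its methods describe SVC and SPA cultures from pooled mice for real-time PCR, and give no number of mice for each array. Each fraction was measured on 1 array, so no difference below has a replicate array and no test was run. The study's own real-time PCR, with replicates, found Plin1 and Plin4 lowest in SVC, higher in SPA and much higher in mature adipocytes. Those PCR values are not used here.

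A lipid droplet is a core of triglyceride and sterol ester under a single layer of phospholipid, and the proteins on its surface decide how the core is stored and broken down. PLIN1 is the coat protein of the large droplet of fat cells, where it holds the lipase co-activator ABHD5 until catecholamines release it. PLIN4 and CIDEC also belong to fat cells, and CIDEC feeds the lipid of small droplets into larger ones. PLIN2 and PLIN3 coat droplets in most cells, PLIN5 is known from cells that burn fatty acids, such as heart and brown fat, and CIDEA from brown fat. Seipin, the product of Bscl2, and FITM2 sit in the endoplasmic reticulum, where droplets are formed.

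The value used throughout is the processed signal of Agilent Feature Extraction, after background subtraction, in arbitrary fluorescence units. A level is that signal relative to the 75th percentile of its array (430 units for SVC, 439 for SPA and 366 for MA), on the log2 scale. Levels of different probes are not comparable, so each gene is set against itself in the 3 fractions. The software called 58.6% to 61.4% of the 59305 non-control spots well above background, and 0 spots saturated. A probe that missed this call on an array was set to a floor, namely the dimmest detected signal of the array (10.3 to 13.9 units) or its own signal if that was larger, and the fold is then written as at least N-fold. The SD given with a log2 ratio comes from probes spotted 10 times on each array with a signal within 2-fold of the gene's own, and covers error within an array only. Such probes numbered from 2 (Plin3 in SVC) to 216 (Plin2 in SPA), with 0 for Cidec in MA, so an SD from few probes is rough. The call was met by 12 of the 16 probes in SVC, and by all 16 in SPA and in MA. The local background around 5 of the 16 spots was marked as outlying on the SPA array, around 1 on the SVC array and around 0 on the MA array. Over all non-control spots the shares so marked were 5.01%, 3.21% and 1.85%, so the 10 genes were marked more often than most on the SPA array.

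The labelled fractions were checked against defining markers. Of 10 adipocyte markers, SVC had 8 well above background, SPA 10 and MA 10, and their summed level (each probe's signal over the 75th percentile) was 11.4, 77.3 and 2405. Adipoq, which encodes adiponectin, was not well above background in SVC. Markers of other cells were present in every fraction: the summed level of 12 macrophage markers was 625 in SVC, 752 in SPA and 221 in MA, and that of 10 fibroblast and progenitor markers 283, 157 and 441. Such a sum is carried by its brightest probes, and of these 10 markers 4 were at least 2-fold higher and 4 at least 2-fold lower in MA than in SVC, against 17.2% and 18.0% of all genes. The largest differences each way among the 10 markers were Lum, 9.05-fold higher, and Pdgfra, a receptor that marks fat cell progenitors, 5.76-fold lower. MA also carried endothelial markers (summed level 81.2, against 3.27 in SVC and 5.41 in SPA, 7 of 7 detected in each fraction) and erythrocyte markers (679, against 0.395 and 0.430). The summed level of 7 mesothelial markers was 43.6, 10.8 and 23.6. The part of these cells in the differences below was not tested, and in such bulk samples fewer cells of a type and less RNA per cell cannot be told apart.

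The coat proteins of fat cells, Plin1, Plin4 and Cidec, were lowest in SVC, higher in SPA and higher again in MA. By the 5-fold rule these 3 of 10 genes were higher in SPA against SVC and 0 of 10 lower, where 0.320% of the 22808 genes that could be read in that comparison were higher and 0.351% lower by the same rule. In MA against SPA, 7 of 10 genes were at least 5-fold higher, namely these 3 with Plin5, Cidea, Fitm2 and Bscl2, and 0 were 5-fold lower, where 5.47% of 24101 genes were higher and 3.97% lower. The same 7 were at least 5-fold higher in MA than in SVC and 0 lower, against 5.72% and 3.96% of 23596 genes. With a 2-fold rule, the genes higher and lower were 4 and 0 of 10 in SPA over SVC (3.89% and 3.24% of all genes), 7 and 2 in MA over SPA (15.7% and 18.0%), and 7 and 0 in MA over SVC (17.2% and 18.0%). The median log2 ratio of the 10 genes was 0.73 for SPA over SVC, 4.13 for MA over SPA and 4.29 for MA over SVC, while over all genes it was 0.07, -0.07 and -0.00. Both the first and the second comparison use the SPA array, so an error in that array would enter both.

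**Figure D1:**
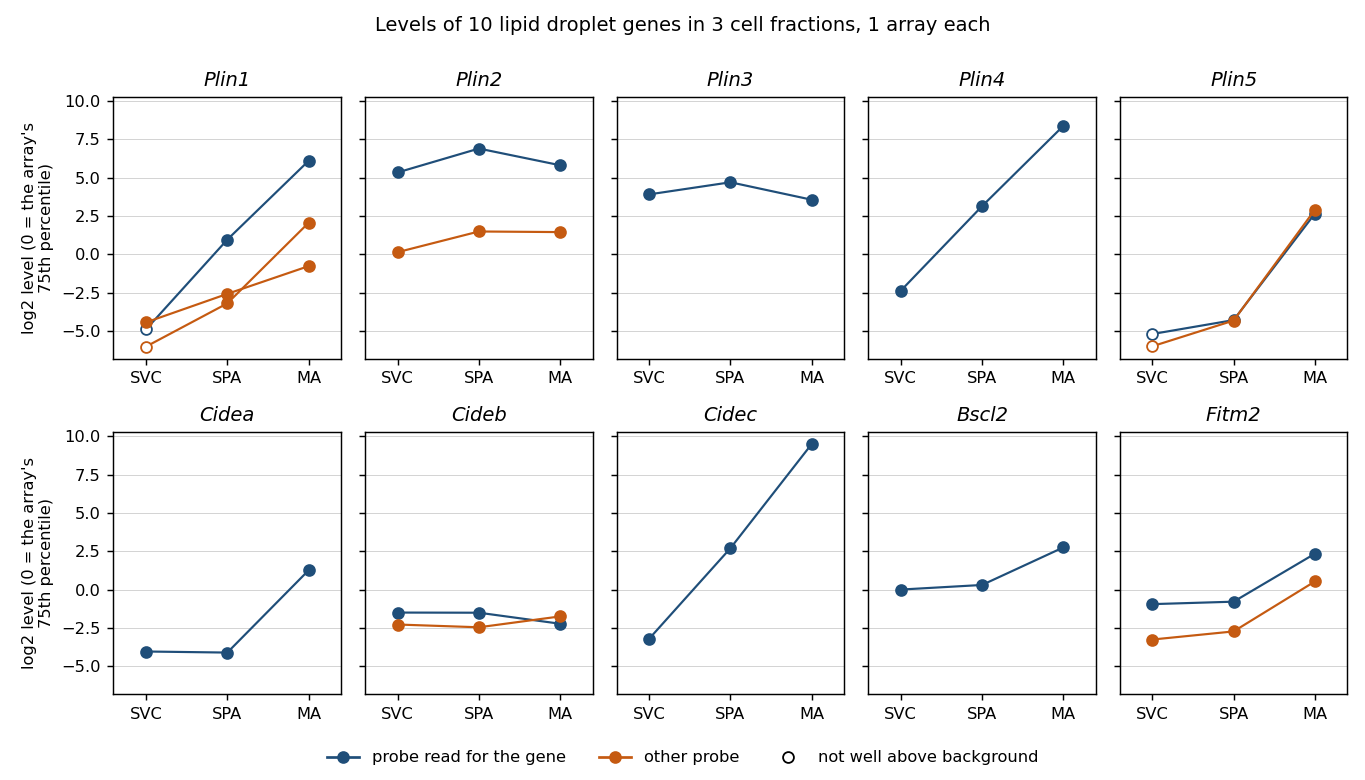
Log2 level of each of the 16 probes in SVC, SPA and MA (1 array each), relative to the array's 75th percentile at 0, with 1 panel per gene and open points where a probe was not well above background. Plin1, Plin4 and Cidec are higher at each step, Plin5, Cidea, Bscl2 and Fitm2 stand apart in MA, and Plin2 and Plin3 are highest in SPA, the second Plin2 probe being level between SPA and MA.

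Cidec, whose product joins droplets by lipid transfer, had the highest ratio of MA over SVC among the 8 genes measured well above background on all 3 arrays. Its single probe (chr6:113374693-113374752, mm9, minus strand) gave 46.7 units in SVC, 2872 in SPA and 267459 in MA, or log2 levels of -3.20, 2.71 and 9.51. SPA exceeded SVC 60.3-fold (log2 5.91, SD 0.17) and MA exceeded SPA 112-fold (log2 6.80), which came to 6735-fold between SVC and MA. No probe spotted 10 times came near its signal in MA, so those last ratios have no SD. Of the genes measured well above background on both arrays, Cidec had the highest ratio of all 20822 for SPA over SVC and of all 20174 for MA over SVC, and stood at place 37 of 20777 for MA over SPA. Adipoq is outside both rankings against SVC, as its SVC signal missed the call. Its lower bounds, 91.6-fold for SPA over SVC and 10784-fold for MA over SVC, lie above the Cidec ratios.

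Plin4, a perilipin with a long repeat region that binds droplets of fat cells, followed the same order. Its probe (chr17:56240055-56240114, mm9, minus strand) gave 82.5 units in SVC, 3876 in SPA and 122039 in MA. The ratio was 46.1-fold for SPA over SVC (log2 5.53, SD 0.15) and 37.8-fold for MA over SPA (log2 5.24, SD 0.09). On the log2 scale the 2 steps differed by less than they do for Cidec, and the product of both was 1741-fold. Among the genes measured well above background on both arrays, Plin4 had the 4th highest ratio of 20822 in the first comparison, and place 130 of 20777 in the second.

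Plin1, the main gatekeeper of lipolysis in fat cells, was read at 3 probes, and all 3 gave the order SVC, SPA, MA. At the RefSeq probe (chr7:86866112-86866171, mm9, minus strand) the signal was 14.4 units in SVC, not well above background, then 851 in SPA and 25023 in MA. By the floor rule SPA exceeded SVC at least 57.9-fold (log2 at least 5.86), MA exceeded SPA 35.3-fold (log2 5.14, SD 0.09), and MA exceeded SVC at least 2043-fold. Both bounds use the SVC spot's own dim signal, which lay above the floor, so they are not firm minima. With the normexp background correction, which draws dim signals together, the log2 values were 3.51 for SPA over SVC and 8.54 for MA over SVC. The other probes lie 3916 and 7758 bases from the RefSeq probe, towards the 5′ end of this minus-strand gene, and carry the names of cDNA clones and not of the RefSeq transcript. The probe for clone BC025137 (chr7:86873870-86873929) gave 6.62 units in SVC, not well above background, 47.9 in SPA and 1524 in MA, so at least 3.38-fold for the first step and 38.1-fold for the second. The probe for clone AK027962 (chr7:86870028-86870087), the dimmest of the 3 in MA but the one that was well above background in SVC, gave 19.8, 73.4 and 214 units, which is 3.63-fold (log2 1.86, SD 0.36) and 3.51-fold (log2 1.81, SD 0.13). The 5-fold call for SPA over SVC therefore rests on the RefSeq probe. Its spot on the SPA array had an outlying local background of 34.0 units, against a median of 30.0 on that array and a mean spot signal of 830. Without that spot, the fold of Plin1 for SPA over SVC was at least 3.38 (log2 at least 1.76).

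The 3 Plin1 probes are shown because they disagree in size. The letters are bases 31 to 60 of each 60-base probe as the array annotation gives them, 5′ to 3′, with the polyadenylation signal AATAAA in capitals where it occurs.
Plin1, RefSeq transcript: gccgcggtcgactctcctttctcgtgggca
Plin1, clone BC025137: tgcgtgAATAAAgttgtccaagaaaaatac
Plin1, clone AK027962: tcttgatacagttaggatgaggggtttttt
AATAAA was found in 2 of the 16 probes of the 10 genes, the clone BC025137 probe and 1 probe of Plin5, and in 9.77% of all 56605 probes, read on the printed strand alone.

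**Figure D2:**
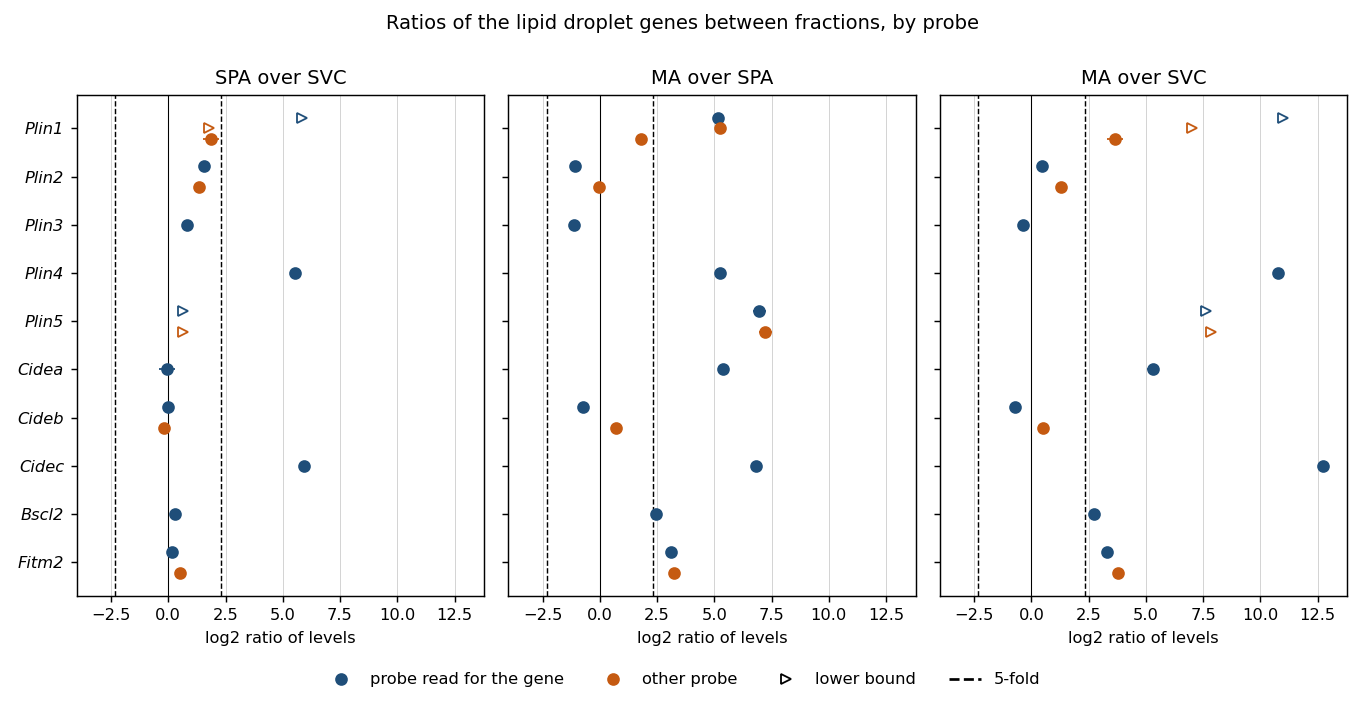
Log2 ratio of levels for each probe in SPA over SVC, MA over SPA and MA over SVC (horizontal axes), with genes in rows. Circles are measured on both arrays, with bars for the within-array SD where one could be had, open triangles are lower bounds, and dashed lines mark 5-fold. The 3 Plin1 probes spread from 12.7-fold to at least 2043-fold in MA over SVC, while the Fitm2 and Plin5 probes lie close together.

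Plin5, Cidea, Fitm2 and Bscl2 differed little or could not be measured between SVC and SPA, and were all higher in MA. Plin5, the perilipin that tethers droplets to mitochondria, has 2 probes that lie side by side. The probe read for the gene (chr17:56251101-56251160, mm9, minus strand) gave 11.7 units in SVC, not well above background, 22.4 in SPA and 2315 in MA. The other (chr17:56251025-56251084) gave 6.71 in SVC, also not well above background, 21.9 in SPA and 2743 in MA. Both SPA signals were close to the floor of detection, so SPA over SVC was at least 1.58-fold and at least 1.55-fold. MA was 124-fold higher than SPA at the first probe (log2 6.96, SD 0.29) and 150-fold at the second (log2 7.23, SD 0.29), and exceeded SVC by at least 196-fold and 232-fold. With the normexp background correction, which draws dim signals together, the ratio of MA over SPA at the probe read was 5.08 on the log2 scale. Plin5 stood at place 33 of 20777 genes in MA over SPA. The spot of the second probe on the SPA array had an outlying local background.
Plin5, probe read for the gene: tacctgggggctcagaactcctagaatcaa
Plin5, second probe: gtcctgAATAAAtatgtttgatgtggtctg
The probes do not share these 30 bases, and the pair is shown because their ratios agreed within the within-array SD in MA over SPA.

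Cidea, the CIDE protein of brown fat cells, was dim in both cultured fractions, at 26.4 units in SVC and 25.5 in SPA, and reached 880 in MA (chr18:67527351-67527410, mm9, plus strand). SPA and SVC differed by a log2 ratio of -0.07 with an SD of 0.34, which is within the error of the array. MA was 41.4-fold higher than SPA (log2 5.37, SD 0.23), or 3.63 on the log2 scale with the normexp correction. Of 8 brown adipocyte markers, SVC and SPA had 3 each well above background and MA had 7, with summed levels of 1.40, 3.39 and 12.3. Ucp1, the uncoupling protein that defines brown fat, was not well above background in SVC or SPA and had a log2 level of -2.23 in MA, while Elovl3 was well above background on no array. Of the 7 brown markers that could be read in MA over SPA, 5 were at least 2-fold higher, against 15.7% of all genes, with Cox8b highest at no less than 217-fold. Dio2, another of these markers, ran the other way and was 14.1-fold lower in MA than in SPA. It was the 1 marker at least 2-fold lower, against 18.0% of all genes.

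Fitm2 binds triglyceride in the endoplasmic reticulum, and its 2 probes gave one picture. The probe read for the gene (chr2:163294776-163294835, mm9, minus strand) gave 225 units in SVC, 257 in SPA and 1862 in MA, and the other (chr2:163294444-163294503) 45.3, 66.6 and 531. SPA exceeded SVC by log2 0.16 (SD 0.11) and 0.53 (SD 0.20), and MA exceeded SPA 8.71-fold (log2 3.12, SD 0.10) and 9.57-fold (log2 3.26, SD 0.13).

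Bscl2, the gene of seipin, was close to the 75th percentile in both cultured fractions, at 434 units in SVC and 545 in SPA, and was 2485 in MA (chr19:8920973-8921032, mm9, plus strand). The ratio for SPA over SVC was 0.30 on the log2 scale with an SD of 0.11. MA was 5.47-fold higher than SPA (log2 2.45, SD 0.09), just past the 5-fold rule, and 6.74-fold higher than SVC. With the normexp correction the log2 ratio for MA over SPA was 2.30, just short of the 2.32 that 5-fold needs.

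Plin2 and Plin3, the perilipins of most cells, were the members with their highest level in SPA. Plin2 was bright everywhere. Its main probe (chr4:86302847-86302906, mm9, minus strand) gave 17403 units in SVC, 52345 in SPA and 20540 in MA, so SPA exceeded SVC 2.95-fold (log2 1.56, SD 0.06) and MA lay 2.12-fold below SPA (log2 -1.09, SD 0.06). A second probe, for which the array annotation gives only 7 bases of the genome (chr4:86302469-86302475), gave 473, 1233 and 1000 units. It held the first difference (log2 1.35, SD 0.11), but MA and SPA were alike within the error of the array (log2 -0.04, SD 0.09). The lower level in MA thus depends on the probe, and quantile normalization of the arrays took the main probe's ratio to -0.30. Both Plin2 spots on the SPA array had an outlying local background, so no Plin2 value from that array is free of this mark. The marked local backgrounds were 34.0 and 34.5 units, against mean spot signals of 47816 and 1271. Plin2 had place 167 of 20822 genes for SPA over SVC.

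Plin3 gave 6448 units in SVC, 11447 in SPA and 4314 in MA (chr17:56418429-56418488, mm9, minus strand). SPA was 1.74-fold higher than SVC (log2 0.80, SD 0.11), and MA was 2.21-fold lower than SPA (log2 -1.14, SD 0.07). Neither reached 5-fold. Plin2 and Plin3 were the 2 of 10 genes at least 2-fold lower in MA than in SPA, where 18.0% of genes were lower by that rule. Of the macrophage markers, Cd68 (log2 levels 5.42, 6.30 and 3.20 in SVC, SPA and MA), Trem2 (4.82, 5.88 and 1.31) and Gpnmb (5.26, 6.51 and -3.18) were also highest in SPA, whereas the complement genes C1qa, C1qb and C1qc were 5.59-fold to 9.12-fold lower in SPA than in SVC. Adgre1, Csf1r and Lyz2 were highest in SPA by a small margin, and Itgam, Mrc1 and Cd163 were lower in SPA than in SVC. In SPA over SVC, 2 of the 12 markers were at least 2-fold higher and 3 lower, against 3.89% and 3.24% of all genes. Over all 12 macrophage markers, 3 were at least 5-fold lower in MA than in SPA, namely Cd68, Trem2 and Gpnmb. The other way went 4, at least 5-fold higher in MA, namely C1qa, C1qb and C1qc at 11.3-fold to 12.5-fold and Cd163 at no less than 114-fold. Of all genes, 3.97% were lower and 5.47% higher by that rule. The part of macrophages in the Plin2 and Plin3 levels was not tested.

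Cideb, the CIDE protein of hepatocytes, was low and had no settled order. The probe read for the gene (chr14:56377150-56377209, mm9, minus strand) gave 153 units in SVC, 155 in SPA and 78.6 in MA, and the other (chr14:56372942-56373001) 89.5, 80.5 and 109. SPA and SVC differed by -0.01 (SD 0.12) and -0.18 (SD 0.17) on the log2 scale. MA over SPA was -0.72 (SD 0.14) at the first probe and 0.70 (SD 0.13) at the second. Opposite signs of like size leave no direction for the gene.

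**Figure D3:**
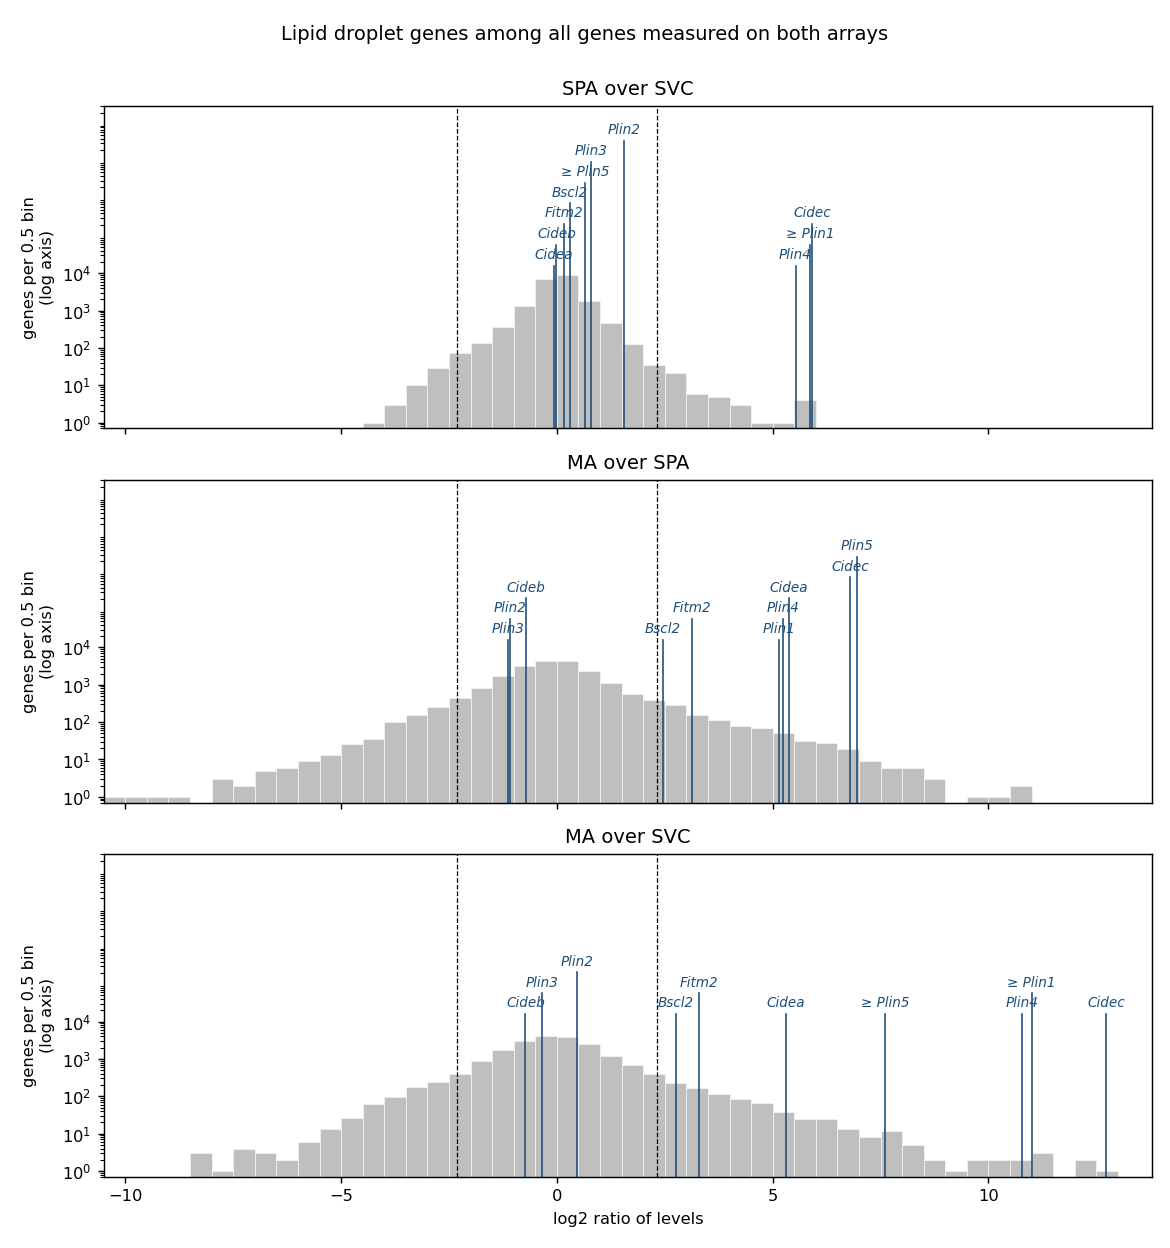
Numbers of genes (log axis) by log2 ratio of levels, in bins of 0.5, over the genes measured well above background on both arrays of each comparison, with the 10 lipid droplet genes marked at their ratio (≥ for a lower bound) and dashed lines at 5-fold. In SPA over SVC, Plin4, Plin1 and Cidec lie at the right end of a narrow distribution, and in MA over SPA 7 of the 10 genes lie to the right of the 5-fold line.

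RefSeq promoter windows (GRCm38.p6) were read for 9 of the 10 genes, 13 windows in all. Cidea was left out, so nothing is said here of its promoter. Shown are the 250 bases before the start for the 3 genes that were higher at both steps, and for Plin5, the neighbour of Plin4. Capitals mark the motifs searched on both strands: AGGTCA, the half-site of nuclear receptors such as PPARG, with its reverse complement TGACCT, then the TATA box TATAAA with its variant TATAAG, and the CCAAT box. The variant was added after the sequences had been seen.
Plin1, chr7:79732777-79733026, minus strand: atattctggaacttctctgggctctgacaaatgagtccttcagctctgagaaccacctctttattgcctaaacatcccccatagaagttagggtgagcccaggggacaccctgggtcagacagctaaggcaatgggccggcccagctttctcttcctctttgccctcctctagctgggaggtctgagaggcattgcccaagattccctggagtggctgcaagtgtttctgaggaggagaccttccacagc
Cidec, first start, chr6:113435761-113436010, minus strand: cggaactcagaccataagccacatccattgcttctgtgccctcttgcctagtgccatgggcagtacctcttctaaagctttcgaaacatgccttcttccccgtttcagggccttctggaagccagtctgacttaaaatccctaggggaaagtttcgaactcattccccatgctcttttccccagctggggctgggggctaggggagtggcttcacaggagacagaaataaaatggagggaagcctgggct
Cidec, second start, chr6:113434765-113435014, minus strand: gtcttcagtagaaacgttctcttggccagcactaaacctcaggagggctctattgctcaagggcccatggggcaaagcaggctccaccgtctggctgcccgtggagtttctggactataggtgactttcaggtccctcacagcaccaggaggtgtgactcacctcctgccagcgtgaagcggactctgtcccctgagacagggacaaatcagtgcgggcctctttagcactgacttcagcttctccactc
Plin4, chr17:56109783-56110032, minus strand: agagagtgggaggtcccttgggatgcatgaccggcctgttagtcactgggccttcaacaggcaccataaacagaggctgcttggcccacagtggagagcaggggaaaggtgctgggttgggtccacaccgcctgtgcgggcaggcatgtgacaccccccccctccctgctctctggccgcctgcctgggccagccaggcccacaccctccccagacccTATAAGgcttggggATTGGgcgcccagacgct
Plin5, first start, chr17:56117549-56117798, minus strand: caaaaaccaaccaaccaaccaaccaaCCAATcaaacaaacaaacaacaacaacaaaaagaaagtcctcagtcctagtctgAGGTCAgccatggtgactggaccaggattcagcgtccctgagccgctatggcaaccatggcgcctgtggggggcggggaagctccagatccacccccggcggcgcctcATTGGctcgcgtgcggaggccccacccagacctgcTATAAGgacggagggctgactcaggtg
The Plin1 window and both Cidec windows held none of these motifs. Plin4 held TATAAG 32 bases before the start and CCAAT, on the other strand, 18 bases before it. The first Plin5 window held TATAAG 27 bases before the start, AGGTCA 170 bases before it and CCAAT in 2 places. Of the 13 windows, 3 held AGGTCA (Plin2, Plin5 and Bscl2), 1 held TATAAA (Cideb), 5 held CCAAT, 2 held TATAAG and 0 held the DR1 element, which is AGGTCA in 2 direct copies 1 base apart. Over all 32851 windows of the same length, the shares were 14.0% for AGGTCA, 12.4% for TATAAA, 33.8% for CCAAT, 6.65% for TATAAG and 0.0335% for DR1.

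Of 35 other lipid droplet proteins (lipases and their partners, sterol enzymes, Rab and caveola proteins), 33 were on the array. In SPA over SVC, 2 of 31 that could be read were at least 5-fold higher and 0 lower, against 0.320% and 0.351% of all genes. Their median log2 ratio was 0.40. G0s2, the inhibitor of the lipase ATGL, had ratios of 7.26-fold for SPA over SVC and 7.39-fold for MA over SPA. Pnpla3, a lipase relative induced by feeding, was at least 5.91-fold higher at the first step and 99.3-fold higher at the second. In MA over SPA, 8 of 32 were at least 5-fold higher and 0 lower, against 5.47% and 3.97% of all genes, with a median of 0.58 for the list. The lipolysis enzymes were among the 8, with Pnpla2, which encodes ATGL, 15.6-fold, Lipe, which encodes hormone-sensitive lipase, 15.6-fold, and Mgll, the monoglyceride lipase, 28.8-fold higher. The others were the caveola protein gene Cav1 at 11.4-fold, Clstn3 at 13.6-fold and Mettl7b at no less than 5.02-fold, a bound at the edge of the rule. In MA over SVC, 8 of 32 were at least 5-fold higher and 0 lower, against 5.72% and 3.96% of all genes, with a median of 0.81 for the list. Hilpda, a hypoxia-induced inhibitor of ATGL, was among the 8 at 5.68-fold while Mettl7b, at no less than 4.43-fold, was not.

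Of 15 genes of triglyceride synthesis, all were readable in each comparison. Higher by at least 5-fold were 1 in SPA over SVC, 10 in MA over SPA and 9 in MA over SVC, and lower were 1, 0 and 0, with median log2 ratios of 0.41, 3.79 and 4.20. Over all genes, in the same order, 0.320%, 5.47% and 5.72% were higher and 0.351%, 3.97% and 3.96% lower. The 2 synthesis genes past 5-fold in SPA over SVC, picked out after their values were seen, were Gpd1, which makes glycerol 3-phosphate, at 16.0-fold higher, and Mogat2, a monoacylglycerol acyltransferase, at 8.64-fold lower. Dgat2, which makes the final ester bond, had ratios of 2.46-fold for SPA over SVC and 93.6-fold for MA over SPA.

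**Figure D4:**
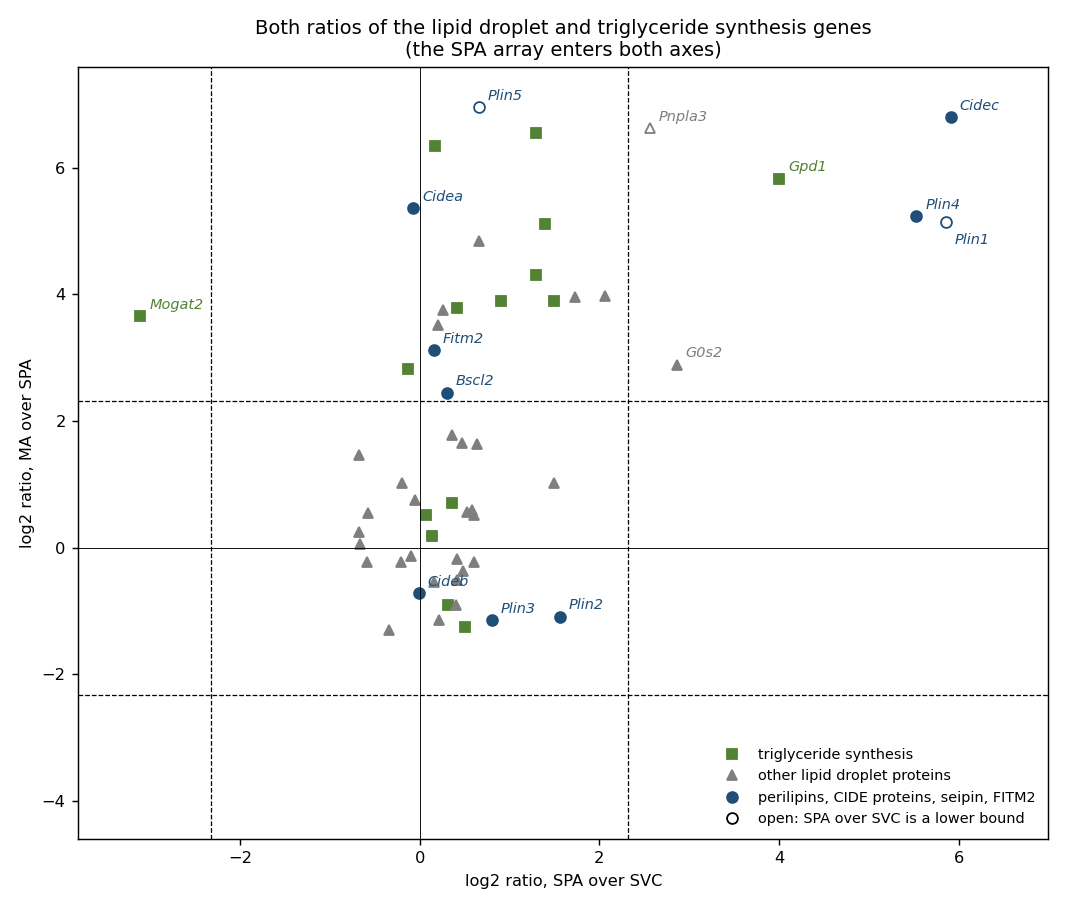
Log2 ratio of SPA over SVC (horizontal) and of MA over SPA (vertical) for the 10 lipid droplet genes, the other lipid droplet proteins and the genes of triglyceride synthesis that could be read in both, with dashed lines at 5-fold. The SPA array enters both axes. Cidec, Plin4, Plin1, Gpd1, Pnpla3 and G0s2 lie past 5-fold on both axes, and Plin2 and Plin3 lie below 0 on the vertical axis.

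The genes most like each member were sought over the 19904 genes well above background on all 3 arrays, by the Euclidean distance between their pairs of log2 ratios, SPA over SVC and MA over SPA. Plin1 and Plin5 could not be placed, as SVC gives only a bound. Nearest to Plin4 were Cfd (distance 0.30), Car3 (0.70) and Retn (1.52), and nearest to Cidec were Retn (0.65), Cfd (1.35) and Plin4 itself (1.61). Cfd, which encodes adipsin, and Retn, which encodes resistin, are secreted products of fat cells and were among the adipocyte markers above. Nearest to Cidea were C4a (0.16), Slc1a3 (0.17) and Iigp1 (0.24). Fitm2 and Bscl2 lie in a crowded range, with BY593506 (0.02), Kit (0.05) and Prxl2b (0.06) nearest to the former and Gm26881, Ormdl3 and Firre (each 0.04) nearest to the latter. Each distance rests on 3 arrays.

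**Figure D5:**
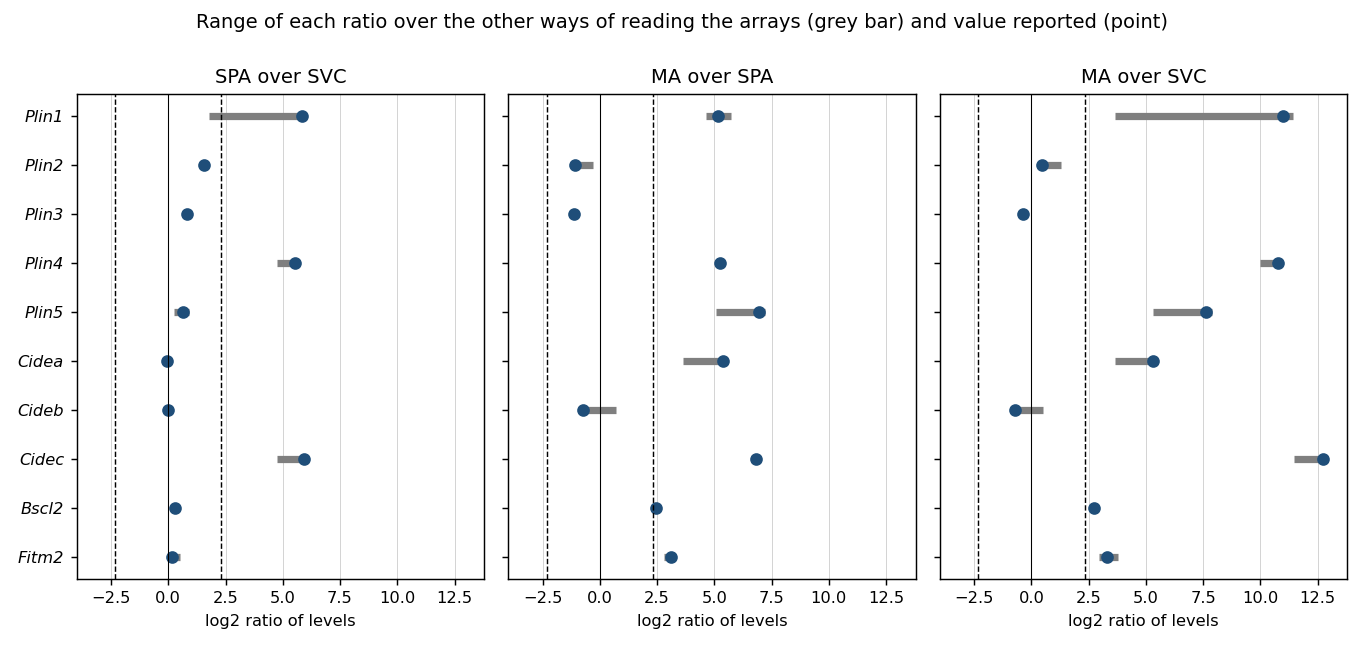
Log2 ratio of levels of each gene in the 3 comparisons (horizontal axes) as reported (points), with the range over the other ways of scaling the arrays, filtering dim probes and choosing the probe (grey bars), and dashed lines at 5-fold. The bar of Plin1 in SPA over SVC runs from 1.76 to 5.86 and crosses the 5-fold line, and the bars of Cideb cross 0 in MA over SPA and MA over SVC.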

How the data were processed

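SVC, SPA and MA were measured on 1 Agilent SurePrint G3 mouse array each, 3 one-colour arrays on 1 slide, from 50 ng of RNA labeled with Cy3. The authors deposited, per spot, the intensity that Agilent Feature Extraction (10.7.3.1) reads from the scan, with background and detection calls, and a ratio equal to the processed signal over 1 constant per array (largest relative departure 2.51e-06). Their analysis used GeneSpring GX with a 5-fold rule, whose normalization is not given in the sources used here.

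Control spots were left out, as were 75, 98 and 129 spots marked as outliers in SVC, SPA and MA. Spots of a probe were averaged, each array was scaled to its 75th percentile on the log2 scale, and a gene with several probes was represented by the one brightest on average over the arrays. A gene was called at 5-fold or more where the array with the higher level detected it. The number of arrays limits the precision, and no test was run. Over the spots called well above background, the median raw signal was 7.89 to 9.86 times the local background. The scripts were tested on simulated data, where 100 of 100 raised genes were called higher and 73 of 100 lowered genes were called lower. Of the unchanged genes, 0 were called. A lowered gene can thus go uncalled more readily than a raised one. The 10 genes and all lists were chosen with earlier results of these data known. Named were the 10 genes, the other lipid droplet proteins at least 5-fold different in any comparison, the 3 nearest genes of each of the 10 that was detected on all arrays and at least 5-fold higher in MA than in SVC, and markers a result turned on. The lists held adipocyte, brown adipocyte, macrophage, fibroblast and progenitor, mesothelial, endothelial and erythrocyte markers. Probe positions are in mm9, from the array annotation, and promoter sequences are those of RefSeq, GRCm38.p6. The 10 alternatives were normexp (offset 50), quantile normalization, a percentile over detected probes, the deposited ratios, leaving out spots with outlying local background, no filter, a stricter filter, the median probe, the probe with the largest ratio, and a 2-fold rule. R 4.3.3 with limma 3.58.1 was used for normexp, and Python 3.11.15 (numpy 2.4.6, pandas 2.3.3, matplotlib 3.10.9) for the rest.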

Additional observations from a re-analysis of the deposited data

How the results depend on the processing

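No paired analysis was possible because each fraction has 1 array. Of 60 counts of called genes recomputed under the alternatives, 59 stayed within 1.5 times the value reported. The exception was the number of the 10 genes lower in MA than in SPA, which was 2 under a 2-fold rule, a looser threshold by construction. All other counts of lower genes were 0 and stayed 0, so the 1.5-fold limit says nothing about them. The number higher in SPA than in SVC fell from 3 to 2 where Plin1 lost its call, which lies at that limit. The deposited ratios are the same signals over 1 constant per array, so their match was fixed in advance. Plin1 in SPA over SVC lost its 5-fold call in 3 settings. The log2 ratio was at least 1.76 without spots of outlying local background and 1.86 with probes detected on both arrays. With the median probe it was at least 2.32, which before rounding is just short of 5-fold. A bound short of 5-fold leaves the call undecided. Leaving out marked spots or undetected probes takes away the RefSeq probe, and the median outvotes its SPA level. Bscl2 in MA over SPA lost it at 2.30 with normexp. Cideb changed sign in MA over SPA (0.70) and MA over SVC (0.52) without those spots, since its other probe is then read. Plin2 has no value there. Over all genes, the counts at least 5-fold higher and lower in SPA than in SVC were 73 and 80 as reported, 30 and 15 with normexp, and 287 and 159 with no filter, and in MA over SPA 1318 and 957 as reported and 762 and 459 with normexp, and in MA over SVC 1349 and 935 as reported and 782 and 441 with normexp. The cause was not tested. Signal over background limits Plin1, Plin5 and Cidea in the cultured fractions.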

Other observations

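Plin4, Plin5 and Plin3 lie in one stretch of chromosome 17. In the RefSeq gene order, 0 genes stand between Plin4 and Plin5 and 9 between Plin5 and Plin3, and the probe starts are 11046 and 167328 bases apart in mm9. The genes between were looked up after the values of the perilipins were known. Lrg1, the next gene after Plin5 and one for a secreted glycoprotein, had ratios of 5.30-fold for SPA over SVC and 54.6-fold for MA over SPA, with log2 levels of -1.12, 1.29 and 7.06 in SVC, SPA and MA. Sema6b and Tnfaip8l1 follow, and were 4.59-fold and 4.89-fold higher in MA than in SPA, with log2 ratios of -0.08 and -0.33 for SPA over SVC. Further towards Plin3, the log2 ratios for MA over SPA were -0.98 for Mydgf, -0.20 for A230051N06Rik, -0.27 for Fem1a and -1.13 for Ticam1, with Dpp9 between the first and the last of these, and that of Plin3 itself was -1.14. Mir7b was not read here.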
